A study of Homo sapiens with 4 samples.

Results

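The genes described here encode the proteins of the cytosolic ribosome, and they were followed in KGN cells with and without overexpressed TOX3. They were chosen by name alone, as the rows of the expression table named RPL, RPS or RPLP with a number and at most a letter such as A, X or L after it, plus RPSA and the paralogs RPL22L1, RPL26L1, RPL39L, RPL7L1 and RPL3L. Pseudogenes and the RPS6K kinases were left out. The rule gave 83 of the 33880 genes in the table, 51 of the large subunit and 32 of the small subunit.

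KGN cells are an established line from a human granulosa cell tumor that makes estrogen through aromatase. The study asked what TOX3, an HMG-box protein of the nucleus whose locus is linked to breast cancer risk, does in such cells. The 2 LV-TOX3 samples carried a lentivirus with full-length TOX3 and the 2 LV-CON samples carried the control lentivirus. Both viruses were diluted 1 to 200, both carried a puromycin resistance gene, and all cells were selected with 2 mg/ml puromycin for 2 passages, so the control cells also went through infection and selection. Poly(A) RNA was sequenced, and the values are RPKM, which divide the reads of a gene by its length and by the size of the library.

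A cytosolic ribosome is built from a large and a small subunit, each with its own set of proteins on ribosomal RNA. The small subunit holds the mRNA and its decoding site, and the large subunit holds the peptidyl transferase center, the tunnel through which the new chain leaves, and a stalk that recruits translation factors. The genes are expressed in nearly all growing cells, and most of their mRNAs start with a run of pyrimidines at the 5′ end, the TOP motif, through which mTOR signaling controls their translation.

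The TOP motif was looked for as a run of at least 5 C or T that begins with a C at the first transcribed base, on the transcribed strand only, in the RefSeq start windows of GRCh38.p14. A start window was matched by symbol for 66 of the 83 genes, and 47 of these (71.2%) held such a run at one or more starts, against 5.14% of the 27305 genes with a window. The windows below show the genes the results turn on, from 10 bases before the start to 20 bases from it, 5′ to 3′, with the pyrimidine run in capitals. RPL22, RPL39, RPL38, RPLP2 and RPL35A had lower values in LV-TOX3, RPL11 and RPL26 did not, and RPL22L1, RPL26L1, RPL7L1 and RPS27L are like-paralogs of other members.
RPL22: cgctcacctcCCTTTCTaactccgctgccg
RPL22L1: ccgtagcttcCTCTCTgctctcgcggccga
RPL26: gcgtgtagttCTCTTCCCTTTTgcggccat
RPL26L1: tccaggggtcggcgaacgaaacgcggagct
RPL39: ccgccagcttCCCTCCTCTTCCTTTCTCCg
RPL38: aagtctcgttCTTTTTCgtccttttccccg
RPLP2: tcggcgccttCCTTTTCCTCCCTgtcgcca
RPL35A: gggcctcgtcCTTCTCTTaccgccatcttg
RPL11: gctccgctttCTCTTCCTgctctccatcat
RPL7L1: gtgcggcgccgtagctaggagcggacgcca
RPS27L: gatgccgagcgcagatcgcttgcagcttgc

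RPL39 had the longest run among the genes matched, at 19 bases, and RPL22L1 had a run of 6 bases, close to the 7 bases of its parent RPL22. RPL26L1, RPL7L1 and RPS27L had no such run at any of their annotated starts. On the minus strand, the windows lie at chr1:6199576-6199605 (RPL22), chrX:119791611-119791640 (RPL39), chr17:8383174-8383203 (RPL26), chr3:170870176-170870205 (RPL22L1) and chr15:63157458-63157487 (RPS27L). On the plus strand, they lie at chr17:74203668-74203697 (RPL38), chr11:809957-809986 (RPLP2), chr3:197950180-197950209 (RPL35A), chr1:23691796-23691825 (RPL11), chr5:172958719-172958748 (RPL26L1) and chr6:42879606-42879635 (RPL7L1). A match describes the annotated start and not the start used in KGN cells.

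The recovered library totals were 17413376 and 16403371 reads in LV-TOX3 and 17757132 and 17858746 reads in LV-CON, for replicates 1 and 2. TOX3 had 18.1 and 17.3 RPKM in LV-TOX3 and no read in either LV-CON library, which is at least 529-fold higher against a floor of 3 reads per LV-CON library (counting error only). FOXL2, which defines granulosa cells, had 10.99 and 10.97 RPKM in LV-TOX3, against 10.5 and 10.9 RPKM in LV-CON. Of the 12 granulosa markers listed, 10 had at least 3 RPKM in every library, while INHA reached no more than 1.09 RPKM and AMHR2 no more than 0.147 RPKM. KRT18 was the highest at up to 622 RPKM, but the keratins KRT8 and KRT18 are not specific to granulosa cells. Apart from them, GATA4 was the highest at up to 27.4 RPKM. The 5 markers of theca, epithelium, leukocytes and endothelium had at most 0.763 RPKM (PTPRC, of leukocytes), and their sum was 0.884 to 1.17 RPKM in LV-TOX3, against 1.03 to 1.44 RPKM in LV-CON. In a bulk library, fewer cells of a type and less RNA per cell cannot be told apart. Separate cultures are not stated for the libraries of a group, so the p-values reflect the spread between these samples alone, and that spread may be technical.

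Ribosomal protein genes were among the most abundant transcripts of KGN cells, and their levels spread widely. The median over the 83 genes was 122 RPKM (mean of the 4 libraries for each gene), 50 genes had at least 100 RPKM, and 6 had less than 3 RPKM. The highest was RPS2, a small subunit protein near the mRNA entry, with 846 and 826 RPKM in LV-TOX3, against 950 and 835 RPKM in LV-CON. RPL41, the shortest ribosomal protein, had 717 and 715 RPKM in LV-TOX3, against 851 and 759 RPKM in LV-CON. For both genes LV-CON replicate 1 was the highest library. RPS2 overlapped between the groups and RPL41 did not. RPS12, RPL7A and RPLP0, the base of the stalk, followed with means of 550, 495 and 489 RPKM. RPL7A overlapped between the groups.

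At the low end, RPL3L, a paralog of RPL3 known from heart and skeletal muscle, had 2 and 1 reads in LV-TOX3 and no read in either LV-CON library, which is within the limit of 3 reads that a count of 0 allows. RPS10, a protein of the mRNA entry region, had only 13 and 12 reads in LV-TOX3, against 9 and 14 reads in LV-CON. RPL17, which lines the exit tunnel, had 0.955 and 1.36 RPKM in LV-TOX3, against 1.05 and 1.11 RPKM in LV-CON. RPL36A, near the exit site of the large subunit, and RPS15A, a core small subunit protein, averaged 1.78 and 1.87 RPKM.

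Low level went with overlap of gene models. In GENCODE v44, 8 of the 83 genes share exon bases on the same strand with another annotated gene, among them RPL17, RPS10, RPL26, RPL36A, RPL22, RPS15A and RPL13A. RPL17 shares 595 bases with RPL17-C18orf32, RPS10 shares 494 bases with RPS10-NUDT3, and RPL36A shares 333 bases with RPL36A-HNRNPH2. Of the 6 genes under 3 RPKM, all but RPL3L were among these 8. RPL13A, with 30 shared bases, was at 421.5 RPKM, and RPL22, with 230 shared bases, was at 72.1 RPKM. The paper names expectation maximization for the expression levels, but the values recovered here are whole reads, which that method need not give. How reads from shared exons were assigned in these values is therefore unclear. The levels of RPL17, RPS10, RPL26, RPL36A and RPS15A are uncertain, and the part of the overlap in them was not tested.

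Copies elsewhere in the genome are a second limit on the levels. Over the coding sequences cut into windows of 50 bases, a median of 48.4% of a gene's windows occurred again elsewhere in hg38. All windows of 8 genes did (RPL21, RPS27, RPS26, RPL41, RPS10, RPS28, RPL36A and RPL39), and no window of RPL39L, RPS27L, RPL38 or RPL3L did. The table also held 472 rows of ribosomal protein pseudogenes, 327 of them above 0. The highest of these rows were RPS2P5, with 480 and 461 RPKM in LV-TOX3, against 506 and 477 RPKM in LV-CON, and RPS28P7, with 293 and 281 RPKM in LV-TOX3, against 365 and 307 RPKM in LV-CON. RPS28 itself had 58.2 and 51.7 RPKM in LV-TOX3, against 60.3 and 53.9 RPKM in LV-CON, so by RPKM the row of its pseudogene stood above it in every library. By recovered reads the order was the reverse. RPS28 had 2149 and 1798 reads in LV-TOX3, and 2269 and 2040 in LV-CON. RPS28P7 had 1071 and 967 reads in LV-TOX3, and 1362 and 1152 in LV-CON. Over the 83 genes, the share of repeated windows and log2 RPKM had a Pearson r of 0.06 and a Spearman rho of 0.14 (n = 83 genes, all from the same 4 libraries).

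The order of levels also depended on the length behind the RPKM. That length had a median of 2907 bases, against a median coding length of 453 bases, and was 5.91 times the coding length at the median. RPS12 had the shortest, 767 bases, and stood at rank 3 by RPKM but 40 by reads and 33 by reads per base of coding sequence. RPLP0, with 4001 bases, stood at rank 5 by RPKM and at 2 by reads. RPL15 stood at 32 by RPKM, at 6 by reads and at 5 by reads per coding base. RPS2 led by RPKM and by reads, and RPL41 led by reads per coding base. Lengths and reads were recovered apart from a possible whole factor per gene. They may be too low for some genes, and the ranks by reads and by reads per coding base may shift with them. For RPSA, the length was 3936 bases, against 7689 bases in GENCODE.

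**Figure D1:**
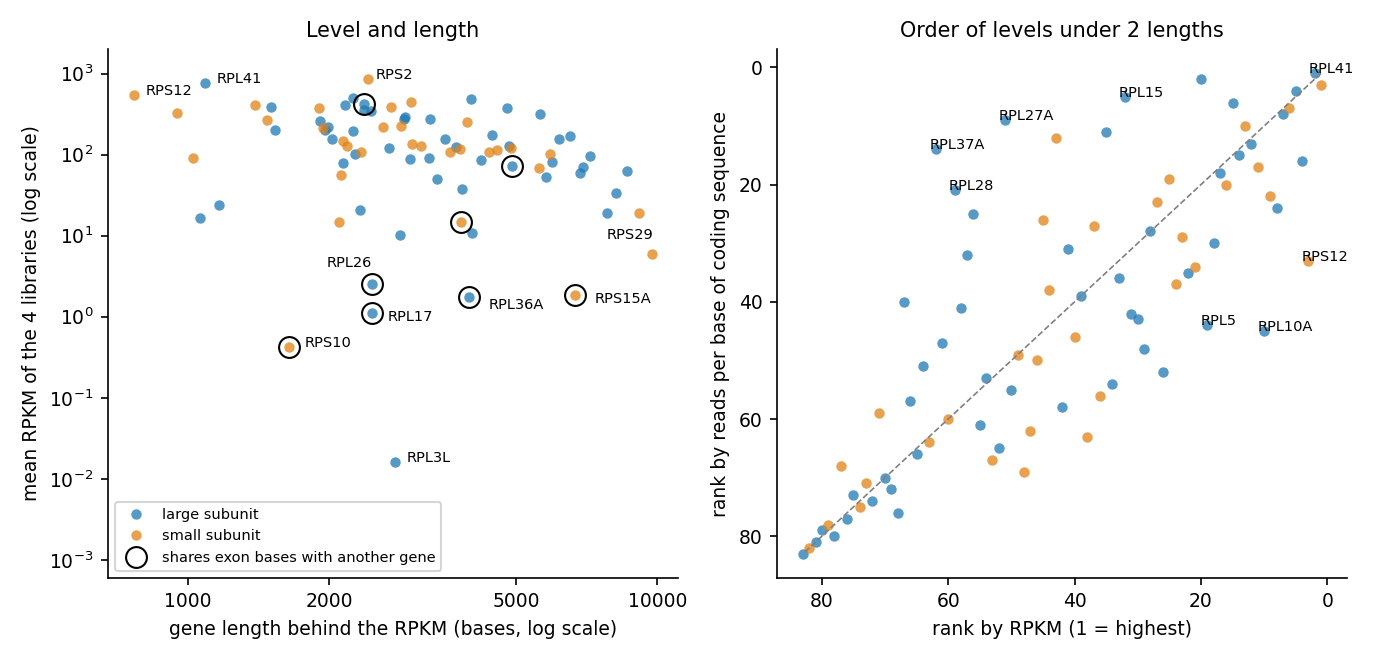
Levels of the 83 ribosomal protein genes. Left, mean RPKM of the 4 libraries (log scale) against the gene length behind the RPKM in bases (log scale), with large subunit genes in blue, small subunit genes in orange and rings around the 8 genes that share exon bases with another gene: RPS10, RPL17, RPL36A, RPS15A and RPL26 lie below 3 RPKM. Right, rank by reads per coding base against rank by RPKM (1 is the highest), where the dashed line marks equal ranks and RPS12 falls to rank 33 while RPL15 stands at rank 5. Lengths and reads are as recovered and may be too low by a whole factor for some genes.

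From the same RNA sequencing, the paper's enrichment analysis of gene sets had placed ribosomal function among the downregulated sets. LV-TOX3 was compared with LV-CON to ask whether the ribosomal protein genes as a group, or either subunit, differed after TOX3 overexpression. Most of them were slightly lower in LV-TOX3, in both subunits alike, and none passed the test across all genes. The large subunit genes summed to 8508 and 8223 RPKM in LV-TOX3, against 9176 and 8676 RPKM in LV-CON, and the small subunit genes to 6016 and 5803 RPKM in LV-TOX3, against 6495 and 6184 RPKM in LV-CON. Both LV-TOX3 libraries lay below both LV-CON libraries in both sums, with LV-CON replicate 1 the highest and LV-TOX3 replicate 2 the lowest. Together the genes took 4.14% and 4.003% of all reads in LV-TOX3, against 4.44% and 4.23% in LV-CON. These shares use the recovered reads, which may be too low by a whole factor for some genes. The mean of the RPKM sums fell by 6.49% for all members, fell by 6.28% for the large subunit and fell by 6.78% for the small subunit. The ratio of the large to the small sum was 1.41 and 1.42 in LV-TOX3, against 1.41 and 1.403 in LV-CON, a difference of 0.55% between the group means.

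Gene by gene, 81 of the 83 had a mean of at least 0.5 RPKM and were tested with limma on log2(RPKM + 0.1), a scale that understates the changes of low genes. RPL3L and RPS10 fell below this limit. The log2 fold change was negative for 74 of the 81 genes and positive for 7 (53.2% of all 14184 genes tested were negative), and 64 of the 81 were negative under quantile normalization, where 50.8% of all genes were. The median was -0.09, against -0.01 over all genes tested, and the middle 50% of the genes lay between -0.14 and -0.05. Both LV-TOX3 libraries were below both LV-CON libraries for 47 of the 81 genes, which is 58.0%, against 20.6% of all genes tested. Both were above for RPL36A and RPL11 only, against 17% of all genes tested.

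No gene of the 81 passed an adjusted p of 0.05 (limma), in either direction, where 0.00705% of all genes tested passed as higher in LV-TOX3 and 0% as lower, and the smallest adjusted p of a member was 0.66 from limma. At an unadjusted p under 0.05, RPL23A, RPL39L, RPL26L1 and RPL39 were lower (4 of 81, against 3.73% of all genes tested) and no member was higher (background 3.07%). At the thresholds the study states, a log2 fold change beyond 0.3 in size with an unadjusted p under 0.05, RPL23A and RPL39L were lower (2 of 81, against 2.64% of all genes tested) and none was higher (background 2.28%). RPL23A and RPL39L were among the 12 tested members under 20 RPKM. None of the 69 members of at least 20 RPKM passed the study's thresholds. Past the limits on p and fold change, the shares of members were therefore close to those of all genes, while the share without overlap between the groups was above it.

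**Figure D2:**
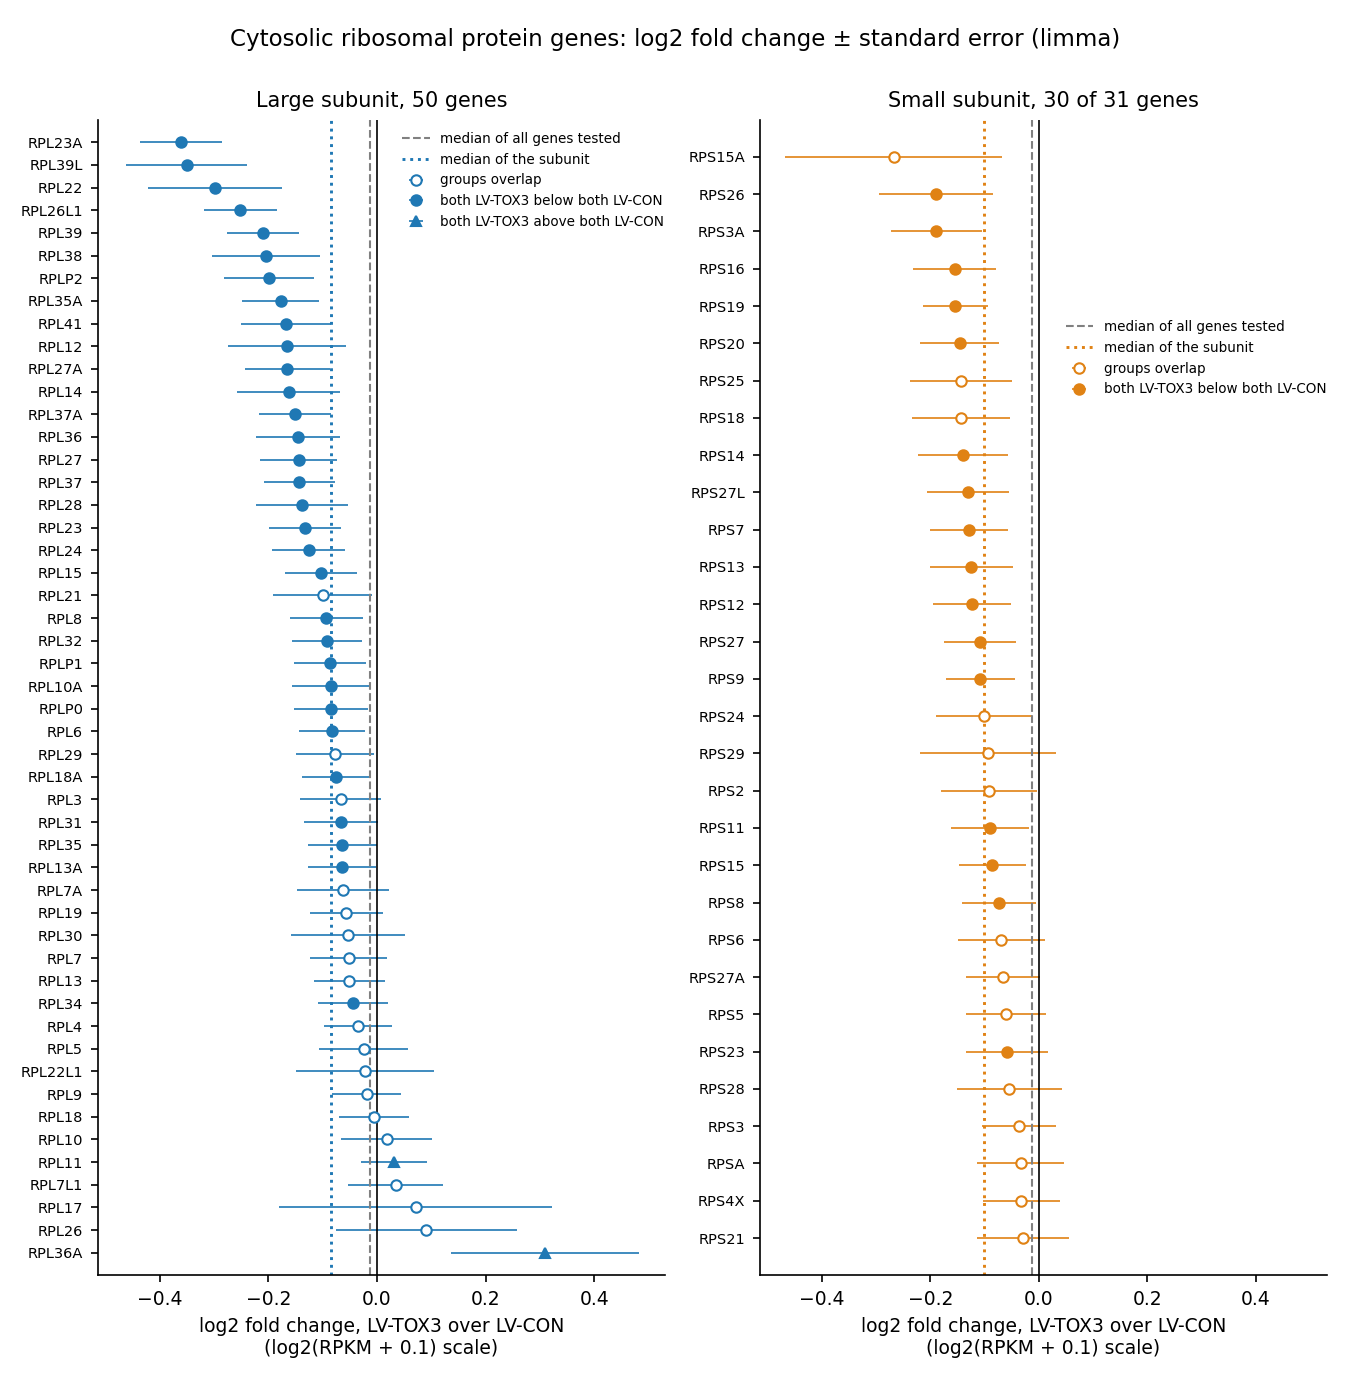
Log2 fold change of LV-TOX3 over LV-CON for the 50 tested large subunit genes (left) and 30 of the 31 tested small subunit genes (right), each with its standard error from limma. Filled circles mark genes with both LV-TOX3 libraries below both LV-CON libraries, triangles the reverse and open circles overlap. The dotted line is the median of the subunit (-0.09 large, -0.10 small), the dashed grey line the median of all genes tested (-0.01), and 6 of the genes drawn lie right of 0.

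The medians of the subunits lay close together. The 50 large subunit genes had a median log2 fold change of -0.09, with 44 negative and 31 (62%) lower without overlap. The 31 small subunit genes had a median of -0.10, with 30 negative and 16 (51.6%) lower without overlap. Of all genes tested, 20.6% were lower without overlap. The medians differed by 0.02 on the log2 scale, a difference that turned its sign when LV-TOX3 replicate 1 (-0.005) or LV-TOX3 replicate 2 (-0.004) was left out. The 4 genes at an unadjusted p under 0.05 (limma) all belonged to the large subunit, 8% of its 50 tested genes, against 3.73% of all genes tested. Whether the subunits differ in this was not tested.

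The size of the shift depended on which libraries were set against each other. The median over the 81 genes was -0.11 for LV-TOX3 replicate 1 against LV-CON replicate 1, and -0.05 against LV-CON replicate 2. It was -0.14 for LV-TOX3 replicate 2 against LV-CON replicate 1, and -0.09 against LV-CON replicate 2. All 4 medians were negative, and 60 to 75 of the 81 genes were negative in each pairing. LV-CON replicate 1 was the highest library for 46 genes and LV-TOX3 replicate 2 the lowest for 58. Within the groups, replicate 2 was below replicate 1 for 61 of the 81 genes in LV-TOX3 and for 49 in LV-CON, with medians of -0.04 and -0.05, which is the size of the smallest median between the groups. Over all genes tested the same medians were 0.03 in LV-TOX3 and 0.01 in LV-CON.

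**Figure D3:**
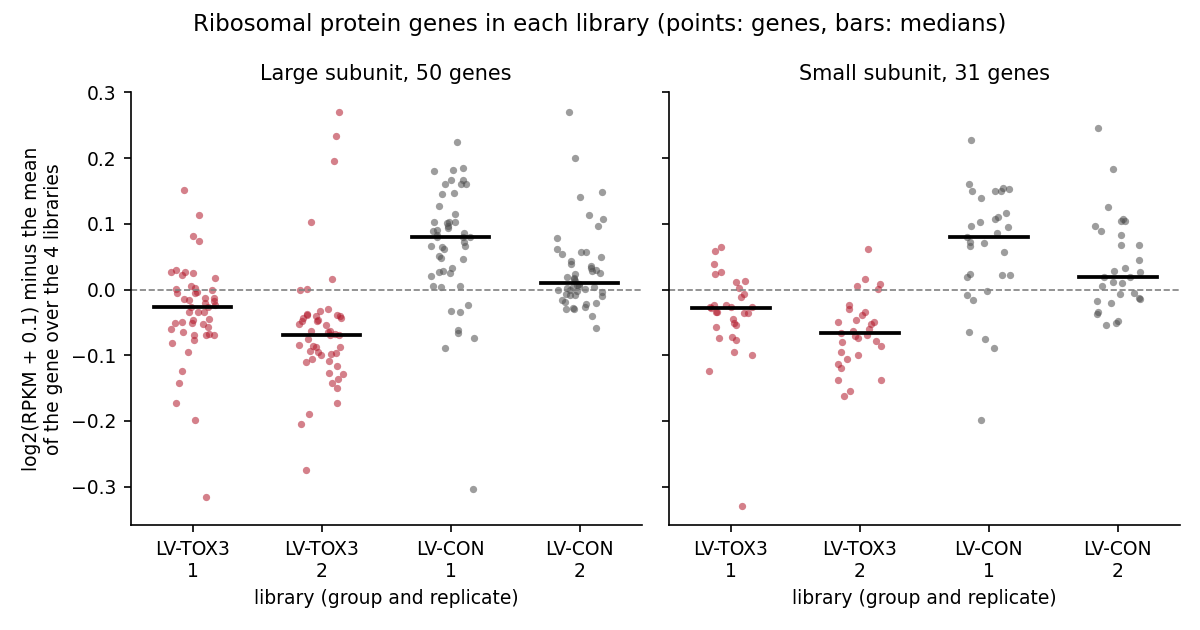
Each tested ribosomal protein gene in each library, as log2(RPKM + 0.1) minus the mean of that gene over the 4 libraries, for the 50 large subunit genes (left) and the 31 small subunit genes (right). Points are genes and black bars are medians of the library. The bars of both LV-TOX3 libraries lie below 0 and those of both LV-CON libraries above it, with LV-CON replicate 1 the highest and LV-TOX3 replicate 2 the lowest.

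The lowest value belonged to RPL23A (ENSG00000198242, chromosome 17, 28719985 to 28724359, plus strand), which sits at the tunnel exit where the signal recognition particle docks. It had 8.89 and 8.79 RPKM in LV-TOX3, against 11.2 and 11.5 RPKM in LV-CON. The replicates lay close together and the groups were well apart, at a log2 fold change of -0.36 ± 0.08 (standard error), with an unadjusted p of 0.0052 and an adjusted p of 0.66 from limma. These values rest on 437 and 407 reads in LV-TOX3 and 563 and 582 reads in LV-CON, and 88.1% of its coding windows occur elsewhere in the genome.

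RPL39, the small protein that lines the exit tunnel, and its paralog RPL39L, known from male germ cells, were both lower. RPL39L (chromosome 3, 187120948 to 187180908, minus strand) had 15.4 and 13.4 RPKM in LV-TOX3, against 17.2 and 19.6 RPKM in LV-CON, a log2 fold change of -0.35 ± 0.11 with an adjusted p of 0.72 from limma. RPL39 (chromosome X, 119786504 to 119791630, minus strand) had 76.4 and 71.7 RPKM in LV-TOX3, against 85.5 and 85.8 RPKM in LV-CON, at -0.21 ± 0.07 with an adjusted p of 0.72 from limma. LV-TOX3 replicate 2 was the lowest library for both genes, and neither overlapped between the groups. No 50-base window of the RPL39L coding sequence occurs elsewhere, whereas every window of RPL39 does.

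RPL22, an RNA-binding protein of the outer large subunit, had 57.4 and 72.3 RPKM in LV-TOX3, against 81.3 and 77.4 RPKM in LV-CON. The groups did not overlap, but the LV-TOX3 libraries stood farther from each other than LV-TOX3 replicate 2 from either LV-CON library. The log2 fold change was -0.30 ± 0.12, with an adjusted p of 0.73 from limma. With LV-TOX3 replicate 1 left out it was -0.13, and with LV-TOX3 replicate 2 left out it was -0.47.

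RPL26L1, a near copy of RPL26 from its own gene (chromosome 5, 172958729 to 172969771, plus strand), had 21.6 and 21.5 RPKM in LV-TOX3, against 25.3 and 26.1 RPKM in LV-CON. The replicates agree within 0.05 on the log2 scale and the groups were apart, at a log2 fold change of -0.25 ± 0.07 with an adjusted p of 0.66 from limma. RPS15A had 1.45 and 1.94 RPKM in LV-TOX3, against 1.88 and 2.21 RPKM in LV-CON, so the groups overlapped, and its value of -0.27 ± 0.20 was smaller than 2 standard errors.

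RPL38, a protein that in mice is needed for translation of certain Hox mRNAs, had 38.0 and 33.0 RPKM in LV-TOX3, against 42.7 and 39.1 RPKM in LV-CON (log2 fold change -0.20 ± 0.10). RPLP2, one of the acidic stalk proteins, had 192 and 181 RPKM in LV-TOX3, against 226 and 202 RPKM in LV-CON (-0.20 ± 0.08). In both genes, replicate 2 was below replicate 1 in each group, and the groups did not overlap.

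**Figure D4:**
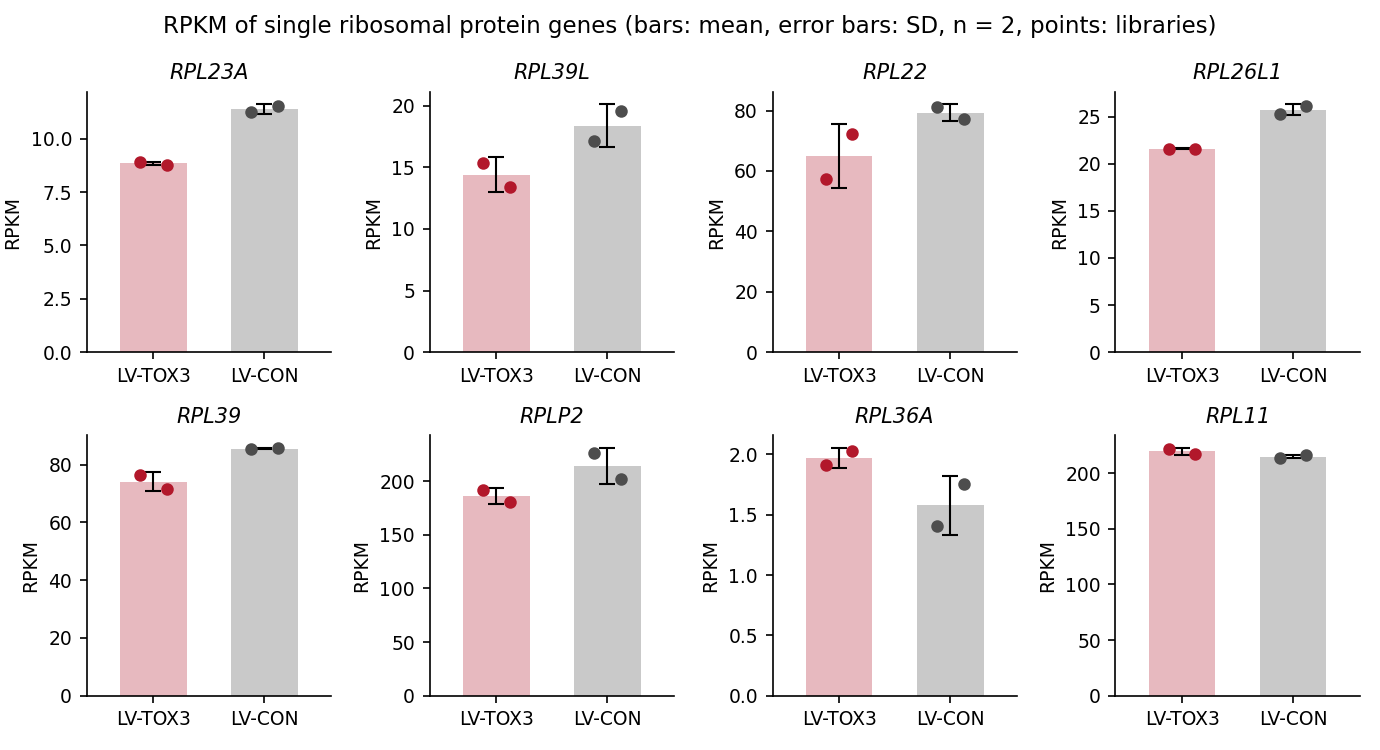
RPKM of 8 single genes in LV-TOX3 (red, left) and LV-CON (grey, right). Bars are means, error bars the SD of n = 2 libraries and points the libraries. RPL23A, RPL39L, RPL22, RPL26L1, RPL39 and RPLP2 have both LV-TOX3 points below both LV-CON points, and RPL36A and RPL11 have both above.

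At the other end, RPL36A (chromosome X, 101390824 to 101396155, plus strand) had 1.91 and 2.03 RPKM in LV-TOX3, against 1.41 and 1.75 RPKM in LV-CON, from 132 and 132 reads in LV-TOX3 and 99 and 124 reads in LV-CON. Its log2 fold change of 0.31 ± 0.17 (adjusted p = 0.79 from limma) came at a level at which the LV-CON libraries differed by 0.30 on the log2 scale. Its copy RPL36AL, which encodes nearly the same protein and is outside the naming rule, had 93.1 and 92.7 RPKM in LV-TOX3, against 116 and 102 RPKM in LV-CON, a log2 fold change of -0.23 ± 0.09 with an adjusted p of 0.72 from limma. The row of RPL36AL was thus far higher in level and opposite in sign to that of RPL36A.

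RPL26 and RPL17 had positive values of 0.09 ± 0.17 and 0.07 ± 0.25, each smaller than its standard error. Both share exon bases with another gene, as does RPL36A. Of the 7 tested genes with shared exons, 4 were positive (median 0.07), against 3 of the 74 tested genes without them (median -0.09), and this split was made after the values were seen. RPL10, a late-joining protein of the large subunit, had 137 and 124 RPKM in LV-TOX3, against 123 and 134 RPKM in LV-CON, and RPL18 had 86.7 and 83.2 RPKM in LV-TOX3, against 86.7 and 83.9 RPKM in LV-CON. Neither differed beyond its spread, and the value of RPL18, -0.01 as deposited, was 0.01 under median ratio scaling and 0.03 under quantile normalization.

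In RPS15A, RPL17 and RPL26, the mean difference between the replicate numbers (0.31, 0.27 and 0.20, log2) was larger in size than the fold change between the groups. Among tested members, the largest mean differences between replicate 2 and replicate 1 belonged to RPS15A (0.39 in LV-TOX3 and 0.22 in LV-CON, log2), RPL17 (0.47 in LV-TOX3 and 0.08 in LV-CON), RPL26 (0.38 in LV-TOX3 and 0.03 in LV-CON) and RPL36A (0.08 in LV-TOX3 and 0.30 in LV-CON, with groups that did not overlap). All of these genes were under 3 RPKM and share exons with another gene. RPL17 had 41 and 55 reads in LV-TOX3, against 46 and 49 reads in LV-CON, and RPL26 had 98 and 121 reads in LV-TOX3, against 106 and 109 reads in LV-CON.

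All 3 genes of the acidic stalk were lower without overlap, as were 58.0% of the 81 tested members and 20.6% of all genes tested. The scaffold RPLP0 had 482 and 467 RPKM in LV-TOX3, against 517 and 491 RPKM in LV-CON (log2 fold change -0.08 ± 0.07). RPLP1 had 275 and 259 RPKM in LV-TOX3, against 281 and 286 RPKM in LV-CON (-0.09 ± 0.07). In RPLP0 the highest library was LV-CON replicate 1, and in RPLP1 it was LV-CON replicate 2.

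RPL5 and RPL11, which carry 5S rRNA into the large subunit and bind MDM2 when they are free, differed little between the groups. RPL11 had 222 and 218 RPKM in LV-TOX3, against 214 and 216 RPKM in LV-CON, a log2 fold change of 0.03 ± 0.06. RPL5 had 293 and 260 RPKM in LV-TOX3, against 283 and 279 RPKM in LV-CON, so that its LV-TOX3 libraries enclosed the LV-CON ones, and its value was -0.02 as deposited and 0.02 under quantile normalization. The RPL11 libraries of the groups did not overlap, but the gap between the groups was smaller than the spread within either.

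Of 7 genes listed for the exit tunnel (RPL17, RPL19, RPL23A, RPL26, RPL31, RPL35 and RPL39), 5 were negative, with a median of -0.06. Of all tested members 91.4% were negative, and of all genes tested 53.2%. RPL23A and RPL39 led, and RPL31 and RPL35 had -0.07 and -0.06. Of the 9 genes mutated in Diamond-Blackfan anemia that were listed, 8 were tested and 6 were negative, with a median of -0.12. RPS19, the gene most often mutated in it, had 111 and 111 RPKM in LV-TOX3, against 123 and 124 RPKM in LV-CON (log2 fold change -0.15 ± 0.06, adjusted p = 0.72 from limma). RPL35A had 83.3 and 81.0 RPKM in LV-TOX3, against 96.6 and 89.4 RPKM in LV-CON (-0.18 ± 0.07, adjusted p = 0.72 from limma). RPSA, a small subunit protein also known as the laminin receptor, had 248 and 254 RPKM in LV-TOX3, against 242 and 271 RPKM in LV-CON, and overlapped.

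The like-paralogs were set against their parent genes as ratios of RPKM in each library, for 5 pairs. Their level depends on the length behind the RPKM of each gene, so they are not ratios of reads. They were tested with an exact permutation test, in which 0.33 is the smallest p that 2 libraries per group allow, so no pair could pass 0.05. RPL22L1, which can take the place of RPL22 in the ribosome, had 23.3 and 18.6 RPKM in LV-TOX3, against 20.4 and 21.8 RPKM in LV-CON. Its ratio to RPL22 was 0.405 and 0.257 in LV-TOX3, against 0.251 and 0.282 in LV-CON. LV-TOX3 replicate 1 stood alone, with the lowest RPL22 and the highest RPL22L1 of the 4 libraries, and LV-TOX3 replicate 2 lay between the LV-CON libraries. The log2 ratio was 0.28 higher in LV-TOX3 (exact p = 0.67, two-sided, adjusted p = 0.83 over 5 pairs), and without LV-TOX3 replicate 1 the difference was -0.05.

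RPL26L1 was far above the row of RPL26 in every library, with ratios of 9.49 and 7.21 in LV-TOX3, against 10.5 and 10.6 in LV-CON. This was the 1 pair without overlap (difference in log2 ratio -0.34, exact p = 0.33, the smallest possible, adjusted p = 0.83 over 5 pairs), and the difference was -0.53 with LV-TOX3 replicate 1 left out and -0.15 with replicate 2 of that group left out. The low level of RPL26 behind it carries the limit on shared exons given above. RPL39L stood at 0.201 and 0.187 of RPL39 in LV-TOX3, against 0.201 and 0.228 in LV-CON, so the ratios overlapped.

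RPL7L1, a nucleolar paralog of RPL7, had 17.99 and 20.3 RPKM in LV-TOX3, against 18.4 and 18.8 RPKM in LV-CON, and its ratio to RPL7 was 0.0625 and 0.0726 in LV-TOX3, against 0.0605 and 0.0666 in LV-CON. RPS27L, the like-paralog of RPS27, had 17.6 and 18.4 RPKM in LV-TOX3, against 19.1 and 20.3 RPKM in LV-CON, and its ratio to RPS27 was 0.0556 and 0.0579 in LV-TOX3, against 0.0544 and 0.0611 in LV-CON. In both pairs the ratios of the groups overlapped. The lengths behind the RPKM were 7809 bases for RPL7L1 and 2907 for RPL7, and 9127 for RPS27L and 946 for RPS27. By recovered reads, which may be too low by a whole factor, RPS27L was closer to RPS27. It had 2796 and 2748 reads in LV-TOX3, and 3099 and 3302 in LV-CON. RPS27 had 5208 and 4921 reads in LV-TOX3, and 5904 and 5599 in LV-CON. RPS27L (log2 fold change -0.13 ± 0.08) and RPS27 (-0.11 ± 0.07) were each lower without overlap, by about the same amount. RPL3L, at no more than 2 reads in a library, gave no ratio to RPL3, which had 374 and 364 RPKM in LV-TOX3, against 404 and 370 RPKM in LV-CON.

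**Figure D5:**
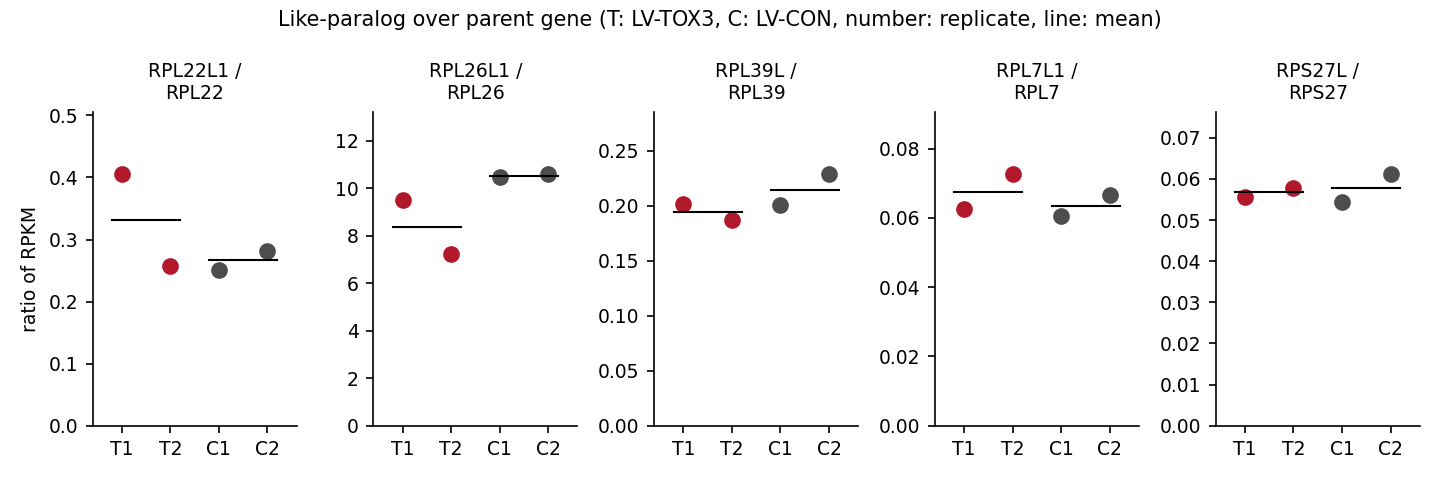
Ratio of the RPKM of each like-paralog to that of its parent gene in each library, with LV-TOX3 replicates 1 and 2 (T1, T2, red) left of LV-CON replicates 1 and 2 (C1, C2, grey) and lines at the group means. RPL26L1 over RPL26 is the 1 pair in which the groups do not overlap, and the high RPL22L1 to RPL22 ratio of 0.405 belongs to LV-TOX3 replicate 1 alone. The level of a ratio depends on the lengths behind the RPKM of both genes.

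Features that the choice by name did not use were set beside the fold changes. Over the 81 tested genes, log2 fold change and coding length had a Pearson r of 0.27 and a Spearman rho of 0.39 (n = 81 genes that share the same 4 libraries), so shorter coding sequences tended to have lower values. RPL39 and RPL39L, of 153 coding bases each, and RPL38, of 210 bases, are examples, and RPL41, of 75 bases, had -0.17. RPS29, of 168 bases, was near the median of the 81 genes at -0.09, and RPS28 (207 bases, -0.05) and RPS21 (249 bases, -0.03) were nearer to 0. The length behind the RPKM (r = 0.02) and the share of repeated windows (r = 0.09) varied with the fold change less. For the level of the gene, r was -0.13 over the 81 genes and 0.23 over the 69 genes of at least 20 RPKM. The 46 tested genes with a TOP start had a median of -0.10 with 42 negative, and the 19 with a start window and no TOP start had a median of -0.09 with 17 negative. The 28 genes that host snoRNA genes in the annotation, 60 of them in all, had a median of -0.09, as did the 53 tested genes that host none. These splits were chosen with results of these data known.

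Genes outside the set had negative medians as well. The median of 1342 other tested genes with a coding sequence under 600 bases was -0.05, with 27.9% lower without overlap, and the median of 245 other genes of at least 100 RPKM was -0.04, with 31.0% lower without overlap. Over all genes tested, 20.6% were lower without overlap. Of the 75 tested genes of mitochondrial ribosomal proteins, 62 were negative and 33 (44%) lower without overlap, with a median of -0.11. MRPL14, of the large mitochondrial subunit, had 35.1 and 35.3 RPKM in LV-TOX3, against 40.7 and 42.9 RPKM in LV-CON (log2 fold change -0.25 ± 0.07, adjusted p = 0.67 from limma). MRPS21, of the small mitochondrial subunit, had 25.9 and 23.1 RPKM in LV-TOX3, against 29.0 and 29.7 RPKM in LV-CON (-0.26 ± 0.08, adjusted p = 0.72 from limma). The median of the mitochondrial ribosome was thus about that of the cytosolic ribosome, while 13 mRNAs encoded by the mitochondrial genome itself had a median of 0.06 with 9 positive.

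Other translation genes whose mRNAs are known to carry a TOP start were nearer to 0. Of 16 such genes, 12 were negative and 5 lower without overlap (31.25%, against 20.6% of all genes tested), with a median of -0.06. HNRNPA1, an RNA-binding protein, had 182 and 192 RPKM in LV-TOX3, against 233 and 219 RPKM in LV-CON (log2 fold change -0.27 ± 0.07, adjusted p = 0.66 from limma). NPM1, a chaperone of ribosome assembly in the nucleolus, had 345 and 341 RPKM in LV-TOX3, against 379 and 361 RPKM in LV-CON (-0.11 ± 0.07). FAU, which encodes a ribosomal protein fused to a ubiquitin-like protein and is outside the naming rule, had -0.04 ± 0.09. The 95 tested pseudogene rows, whose reads may come from the genes themselves, had a median of -0.08 with 67 negative. How far coding length, level or library composition account for the shift of the ribosomal protein genes was not tested.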

How the data were processed

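By their methods, the authors used SOAPnuke to filter reads, HISAT2 to align them to hg38, and expectation maximization to quantify genes. They deposited RPKM per gene and library, tested with limma-voom, and applied ComBat against batch effects. Not given in the sources used here are tool versions, the batches, and whether the deposited RPKM were batch-corrected. Every sample column was used. Reads per gene and library totals were recovered from the RPKM as whole multiples (relative tolerance 1e-09), apart from a possible whole factor common to a gene's libraries, for all 29088 genes above 0, a step tested on simulated data. Expectation maximization need not give whole reads.

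Groups came from the labels. The 14184 genes averaging 0.5 RPKM or more were fitted with limma 3.58.1 in R 4.3.3 (trend, two-sided, no block) on log2(RPKM + 0.1), with Benjamini-Hochberg adjustment over all of them. The step was tested on simulated data. Positions, coding lengths and shared exons are from GENCODE release 44 on hg38, in which 33498 gene IDs were found and which may differ from the authors' annotation, and start windows are from RefSeq. Tables were handled in Python 3.11.15 with pandas 2.3.3 and numpy 2.4.6.

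Members and lists were chosen with earlier results of these data known. The genes named are TOX3, the 6 like-paralogs and their parents, RPLP0, RPLP1, RPLP2, RPL5, RPL11 and RPSA, the 8 lowest and 8 highest members by fold change, the 5 highest and 5 lowest by level, the 4 with the largest difference between replicate numbers, and up to 4 genes of each list by p. RPL15, RPS28, RPL13A and the pseudogene rows were named after their values were seen. Some values that the naming rule takes are not reported here. The alternatives were pseudocounts of 1 and 0.01, a filter at 1 RPKM or none, scaling by median ratios or quantiles, a block for the replicate number, each library left out, and limma-voom on recovered reads, alone or with that block.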

Additional observations from a re-analysis of the deposited data

How the results depend on the processing

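Most members stayed negative under each of the 13 alternatives, with 64 (quantile normalization) to 74 of 81 negative, and 32 (quantile normalization) to 68 (without LV-TOX3 replicate 1) lower without overlap, where the share over all genes tested was 18.7% and 35.2%, against 20.6% with all libraries. With 1 library left out, 2 to 8 members were higher without overlap, against 2 with all libraries, while the share over all genes was 29.9% to 34.5%, against 17%. The median of the large subunit then ran from -0.13 (without LV-CON replicate 2) to -0.059 (without LV-CON replicate 1), and it was -0.055 under quantile normalization. The difference of the subunit medians ran from -0.0050 to 0.022, and the differences in log2 ratio from -0.052 to 0.60 for RPL22L1, from -0.021 to 0.19 for RPL7L1, from -0.53 to -0.15 for RPL26L1, from -0.23 to -0.048 for RPL39L and from -0.11 to 0.061 for RPS27L.

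Log2 fold changes that turned their sign with 1 library left out ran from -0.055 to 0.090 for RPL10, -0.16 to 0.31 for RPL17, -0.035 to 0.024 for RPL18, -0.18 to 0.14 for RPL22L1, -0.097 to 0.28 for RPL26, -0.11 to 0.061 for RPL5, -0.11 to 0.0018 for RPL7, -0.13 to 0.0090 for RPL7A, -0.051 to 0.12 for RPL7L1, -0.18 to 0.0018 for RPS2 and -0.11 to 0.048 for RPSA. RPL18 was 0.0074 under median ratio scaling, 0.027 under quantile normalization, 0.0023 with limma-voom on the recovered reads and 0.0024 when that fit held the block. RPL5 was 0.015 under quantile normalization. Without changing sign, values ran from -0.46 to -0.073 for RPS15A, -0.31 to -0.10 for RPL38, -0.25 to -0.085 for RPL41 and 0.16 to 0.46 for RPL36A.

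The replicate numbers are not said to mark a shared culture or batch, and deviations of same-numbered libraries had a correlation of 0.19 over all genes tested and 0.24 over the members. With the replicate number as a block, limma called 0 members. Limma-voom on the recovered reads with that block called 2 members lower, RPL22 (adjusted p = 0.0015) and RPL23A (adjusted p = 0.019), where it called 729 genes in all (5.14% of those tested). With 2 libraries per group and a block, such p-values rest largely on the spread of other genes. Limma with the same block gave RPL22 an adjusted p of 0.37 and RPL23A 0.24. In RPL22, replicate 2 minus replicate 1 was 0.33 in LV-TOX3 and -0.07 in LV-CON (log2). Without the block limma-voom called 0 members. The cause was not tested. The median log2 fold change of the members was -0.092 as deposited, -0.079 under median ratio scaling and -0.056 under quantile normalization. Over all genes tested it was -0.012, 0.00041 and -0.0029 in the same order. TOX3 alone passed the adjusted p among all genes tested (limma), so with 2 libraries per group a member that missed it is not shown to be equal in the groups, and genes under 3 RPKM rest on few reads.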
